A study of Homo sapiens with 12 samples.

Results

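The cytokines described here are 10 that Hodgkin and Reed-Sternberg cells, the malignant B-lineage cells of classical Hodgkin lymphoma, are known to make: IL13, IL5, IL4, IL6, EBI3, IL10, IL21, IL16, IL9 and CSF2. They were chosen by symbol, as the rows of the deposited table that the platform annotation assigns to one of them. Of the 10 genes, 8 had a row, 1 row each, among 20546 rows with a gene symbol and 32321 rows in all. IL9 and CSF2 had none and were not analysed here. RNA was read on 12 Affymetrix arrays that cover whole transcripts. There were 4 groups with 3 arrays each: L-428 tGFP/EBF1, L-428 tGFP, L-1236 tGFP/EBF1 and L-1236 tGFP. L-428 and L-1236 are established Hodgkin lymphoma cell lines. In the tGFP/EBF1 groups the vector carried a green fluorescent protein (tGFP) and, behind an IRES, EBF1, a transcription factor of early B cells that Hodgkin cells largely lack. The controls carried the tGFP vector, so transduction, a culture of 8 days and sorting for tGFP were common to all 4 groups. The labels call the 3 samples of a group independent without saying whether they were separate transductions, so the p-values measure the spread between these samples. Each condition was studied in established lines, and the promoter of the vector is not given in the sources used here. Values are the authors' log2 array signals, in which a change of 1 is a doubling. Because rows have different probes, levels are compared between groups within a row and not between genes.

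Hodgkin cells sit among many more reactive T cells, eosinophils, macrophages and other leukocytes, and the cytokines they secrete recruit and instruct these cells or act back on the tumour cell. IL13 and IL4 signal through receptors that share the IL4R chain and activate STAT6, and IL13 is known as an autocrine growth factor of Hodgkin cells. IL5 and CSF2 act through receptors with the common chain CSF2RB. IL6 acts through IL6R and IL6ST, which activate STAT3. EBI3 is a secreted receptor-like subunit that pairs with IL27 or with IL12A.

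The transduced gene was checked first. The EBF1 row, which the annotation also assigns to PDGFRB, read 12.96, 12.98 and 12.93 in L-428 tGFP/EBF1 cells, against 8.63, 8.37 and 8.34 in L-428 tGFP cells. It read 13.07, 13.27 and 13.10 in L-1236 tGFP/EBF1 cells, against 7.24, 7.13 and 7.16 in L-1236 tGFP cells. The differences were 22.8-fold and 62.8-fold (limma, adjusted p = 6.87e-18 in L-428 and 4.47e-20 in L-1236). Array medians lay between 7.19 and 7.31. L-428 tGFP replicate 3 and L-1236 tGFP/EBF1 replicate 1 had narrower interquartile ranges than their group mates (2.28 and 2.17), and the cytokine calls that change without either are given both ways. All 6 Hodgkin cell markers were measured, and their mean signal per array lay between 9.70 and 10.63. It was 10.56 to 10.60 in L-428 tGFP/EBF1 and 10.32 to 10.63 in L-428 tGFP cells. In L-1236 it was 9.88 to 9.92 with tGFP/EBF1 and 9.70 to 9.76 with tGFP, without overlap. In L-428 CD40 alone changed with a limma adjusted p of 0.05 or less, 16.7% of these markers against 4.34% of all rows. It averaged 9.57 with tGFP/EBF1 and 8.53 with tGFP. TRAF1 averaged 10.06 and 10.38 there and did not pass that threshold. In L-1236, 2 markers rose and 0 fell by it (33.3%, against 9.64% of all rows). Mean T-cell marker signal lay between 6.38 and 6.56 over the 12 arrays. B-cell markers, 5 of 6 with a row, averaged 6.75 to 6.84 in L-428 tGFP/EBF1 cells and 6.73 to 6.82 in L-428 tGFP cells. They averaged 7.48 to 7.51 in L-1236 tGFP/EBF1 cells and 7.23 to 7.34 in L-1236 tGFP cells. Of these 5 markers, 2 rose and 1 fell in L-1236 by that threshold. CD79A read 8.14, 8.15 and 8.26 there with tGFP/EBF1, against 7.07, 7.02 and 6.92 with tGFP. CD79B averaged 7.28 against 7.02 and BLK 7.66 against 7.52. CD22 moved the other way, at 8.51 against 8.91, and MS4A1 averaged 5.86 in both groups. The part of these marker changes in the cytokine results was not tested. In sorted pools, fewer cells that make a cytokine and less RNA per cell cannot be told apart.

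EBF1 changed 4 of the 8 measured cytokines. IL13 fell in both lines, IL5 fell in L-428, EBI3 rose in L-1236, and IL6 rose in L-428 and fell in L-1236. A change passed when its Benjamini-Hochberg adjusted p, taken over all rows tested in a limma fit of the 4 groups, was 0.05 or less. In L-428, 3 of 8 cytokines passed (37.5%), against 4.34% of all rows tested. In L-1236, 3 of 8 passed (37.5%), against 9.64% of all rows. Of all rows, 2.62% rose and 1.72% fell in L-428, and 3.69% rose and 5.95% fell in L-1236. No cytokine reached the 2-fold limit that the study set beside its false discovery rate, which 0.0973% of rows passed in L-428 and 0.146% in L-1236. The changes ranged between -0.42 and 0.36 in L-428 and between -0.39 and 0.43 in L-1236. Their medians were -0.034 in L-428 and 0.036 in L-1236, against 0.0037 and 0.0080 over all rows.

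**Figure D1:**
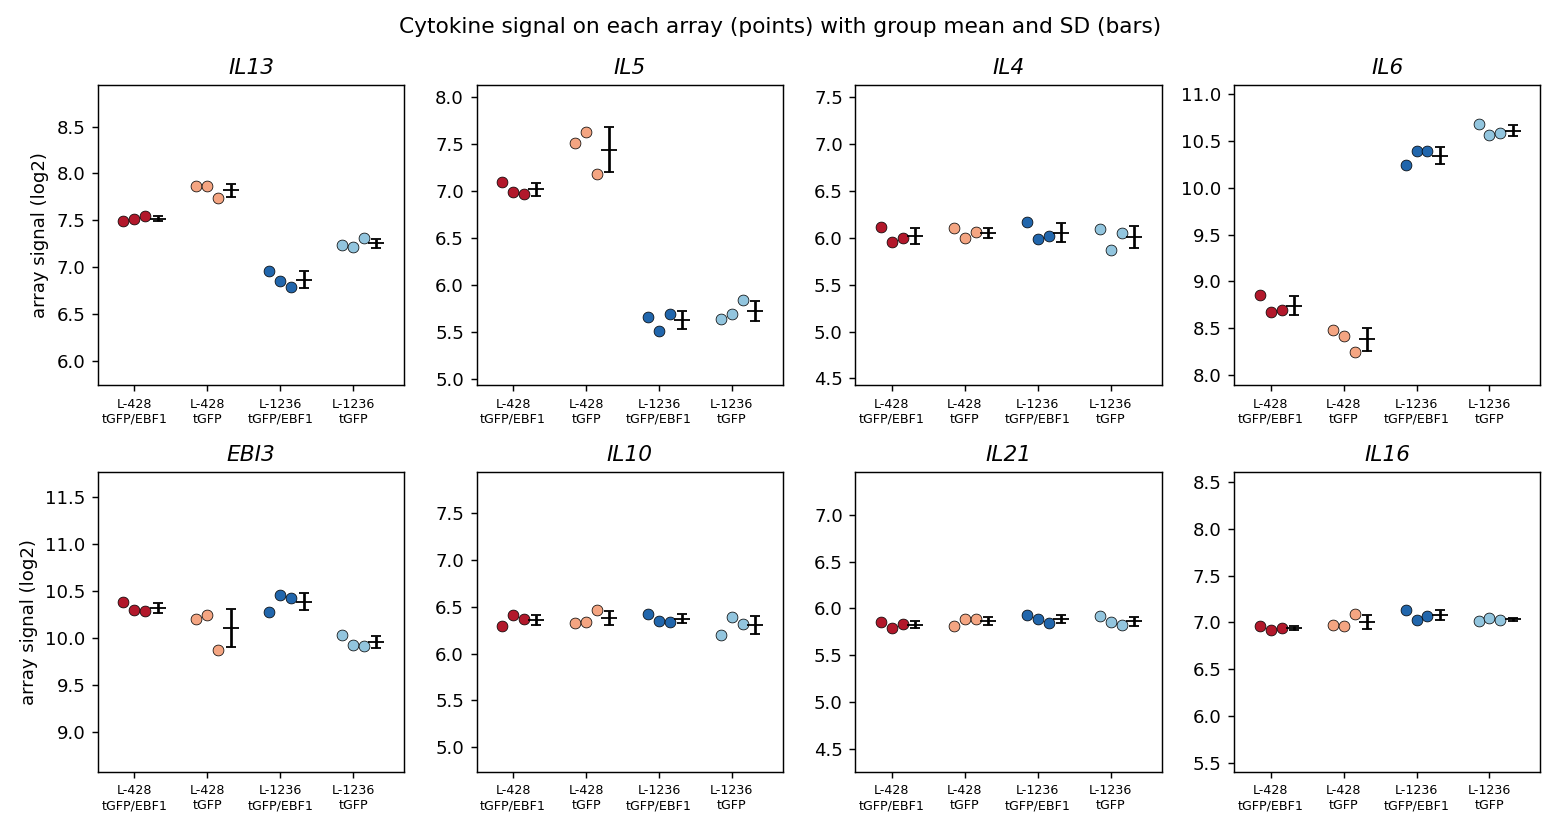
Log2 signal of each measured cytokine on the 12 arrays (y axis, the same span of log2 units in each panel) by group (x axis); points are arrays and bars are group mean and SD. IL5 and IL6 differ most between the lines, and IL13 separates into 4 levels that do not overlap.

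IL13, the type 2 cytokine that feeds back on Hodgkin cells, was lower with EBF1 on every array of both lines. It read 7.50, 7.52 and 7.55 in L-428 tGFP/EBF1 cells, against 7.86, 7.86 and 7.74 in L-428 tGFP cells. In L-1236 it read 6.96, 6.86 and 6.78 with tGFP/EBF1, against 7.24, 7.22 and 7.31 with tGFP. The 4 groups did not overlap: L-428 tGFP was highest, then L-428 tGFP/EBF1, L-1236 tGFP and L-1236 tGFP/EBF1. IL13 fell by 0.30 on the log2 scale in L-428 (1.23-fold, SE 0.062, 95% interval -0.43 to -0.17, limma adjusted p = 0.00692). It fell by 0.39 in L-1236 (1.31-fold, 95% interval -0.52 to -0.26, limma adjusted p = 0.000317). The effect in L-428 minus that in L-1236 was 0.088, with an interval of -0.096 to 0.27 (limma adjusted p = 0.704), so a difference between the lines within that range could not be told from 0.

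The promoter window of IL13 is shown because its gene fell in both lines and because EBF1, a DNA-binding factor, was the agent. The windows below are RefSeq sequence of assembly GRCh38.p14, with 250 bases before and 50 after a gene start, on the plus strand. Capitals mark matches to short motifs that were chosen with the values and windows known: the EBF1 core CCCNNGGG, the AP-1 site TGANTCA, the C/EBP site TTGCNNAA, GATAA for GATA factors, TATAAA for the TATA box, and the NF-kappaB site. Both strands were searched. The IL13 window lies at chr5:132657923-132658222.
IL13: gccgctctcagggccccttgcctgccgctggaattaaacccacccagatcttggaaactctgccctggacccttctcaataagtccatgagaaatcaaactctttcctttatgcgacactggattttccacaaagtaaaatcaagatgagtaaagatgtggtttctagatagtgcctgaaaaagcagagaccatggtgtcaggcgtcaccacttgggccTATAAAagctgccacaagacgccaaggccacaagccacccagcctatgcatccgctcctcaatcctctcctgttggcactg
It held a TATA match from -31 to -26, relative to the start, and no EBF1 core. TATAAA occurred in 11.5% of all 35116 windows and the EBF1 core in 19.1%. A second RefSeq start of IL13, upstream, had a window with a GATAA match and no EBF1 core. The IL4 window held a C/EBP and a GATAA match and no EBF1 core, and no IL5 window was in the table used. A match is a string of letters, not evidence of binding.

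IL5, the growth and survival factor of eosinophils, was lower with EBF1 in L-428. Its values were 7.10, 7.0 and 6.96 in L-428 tGFP/EBF1 cells, against 7.51, 7.63 and 7.18 in L-428 tGFP cells. The arrays did not overlap, and L-428 tGFP replicate 3 lay closest to the EBF1 arrays. IL5 fell by 0.42 on the log2 scale (1.34-fold, SE 0.094, 95% interval -0.62 to -0.23, limma adjusted p = 0.0118). The call is sensitive to single arrays: it was lost without L-428 tGFP/EBF1 replicate 2 or 3 or L-428 tGFP replicate 1 or 2, with an adjusted p of up to 0.0731, when each array was centred on its median (0.0756), and when every row was tested (0.051). Without L-428 tGFP replicate 3 the change was -0.56 (limma adjusted p = 0.000351). In L-1236 the row read 5.66, 5.51 and 5.69 with tGFP/EBF1, against 5.63, 5.69 and 5.84 with tGFP, and the groups overlapped. The change there was -0.099 (95% interval -0.30 to 0.097, limma adjusted p = 0.627). The row was dim in L-1236, above only 3.98% to 10.9% of the rows of each array, so a fall there may be understated. The effect in L-428 minus that in L-1236 was -0.32 (95% interval -0.60 to -0.046, limma adjusted p = 0.198), and -0.46 without L-428 tGFP replicate 3 (adjusted p = 0.0127).

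IL4, which drives type 2 T-helper differentiation and B-cell class switching, was near the low end of the arrays in all groups. It read 6.11, 5.95 and 5.99 in L-428 tGFP/EBF1 cells, against 6.10, 6.0 and 6.06 in L-428 tGFP cells. In L-1236 it read 6.17, 5.98 and 6.01 with tGFP/EBF1, against 6.09, 5.87 and 6.05 with tGFP. The groups overlapped in both lines. The changes were -0.034 in L-428 (95% interval -0.18 to 0.12) and 0.050 in L-1236 (95% interval -0.10 to 0.20), with limma adjusted p of 0.946 and 0.767. The row lay above 11.5% to 19.4% of the rows of its array, and a change of RNA at that level may be understated.

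**Figure D2:**
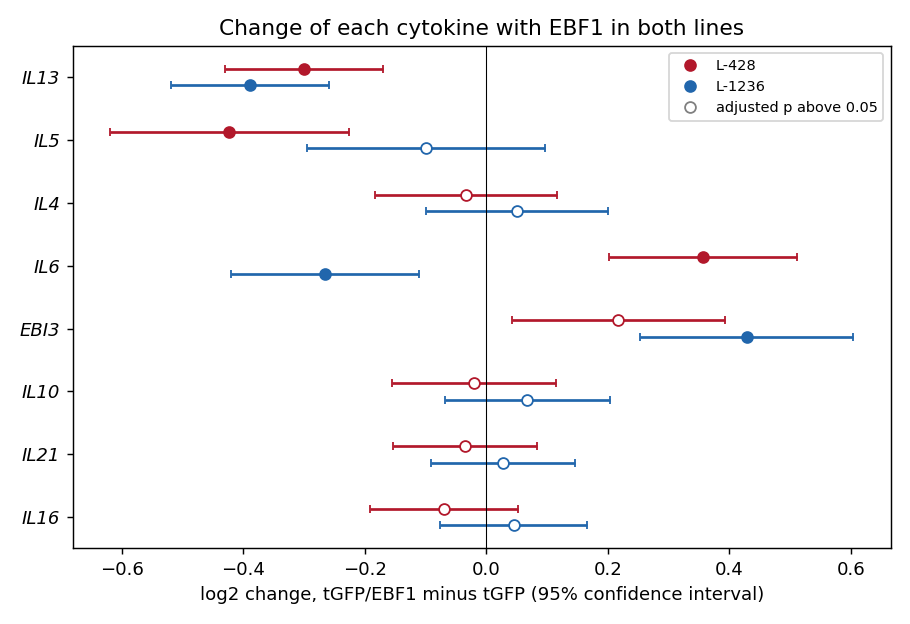
Log2 change with EBF1 (x axis, tGFP/EBF1 minus tGFP, with 95% confidence interval) of each measured cytokine in L-428 (red) and L-1236 (blue); filled points passed an adjusted p of 0.05. The IL13 points lie left of 0 in both lines, and the IL6 points on opposite sides of it.

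IL5, IL13 and IL4 lie next to each other on chromosome 5, with RAD50 between IL5 and IL13, and their expression in T-helper cells is known to be controlled over the whole cluster. The protein-coding genes from IL3 to KIF3A were therefore set beside them, in RefSeq order, after values had been seen. Of these 12 genes 11 had a row. SLC22A4, a carnitine and ergothioneine transporter, rose most: it read 8.10, 7.95 and 8.05 in L-428 tGFP/EBF1 cells against 7.29, 7.26 and 7.27 in L-428 tGFP cells, and 9.35, 9.80 and 9.68 in L-1236 tGFP/EBF1 cells against 7.24, 7.37 and 7.28 in L-1236 tGFP cells. Its changes were 0.76 in L-428 (limma adjusted p = 2e-05) and 2.31 in L-1236 (3.63e-12), and they differed by -1.56 (3.51e-07). IRF1, an interferon-induced transcription factor, rose in L-428 by 0.58 (limma adjusted p = 9.4e-05) and changed by 0.24 in L-1236 (0.0571). P4HA2, a subunit of a collagen-modifying hydroxylase, fell by 0.44 on the log2 scale in L-428 (limma adjusted p = 0.0019) and rose by 0.42 in L-1236 (0.00132), a difference of -0.86 between the lines (8.75e-05). The DNA repair gene RAD50, which separates IL5 from IL13, changed by -0.036 in L-428 (limma adjusted p = 0.935) and -0.21 in L-1236 (0.0559). IL3, PDLIM4, SLC22A5, IL4 and KIF3A did not pass in either line. Passing changes of the 11 measured genes had both signs, and over all rows 4.34% passed in L-428 and 9.64% in L-1236. The flanking genes SLC22A4, IRF1 and P4HA2 gave the rises, and P4HA2 also a fall, in L-428. From IL5 to IL4 the passing changes, of IL5 in L-428 and of IL13 in both lines, were falls. RAD50 and IL4 passed in neither line. Control over the whole cluster was not tested.

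**Figure D3:**
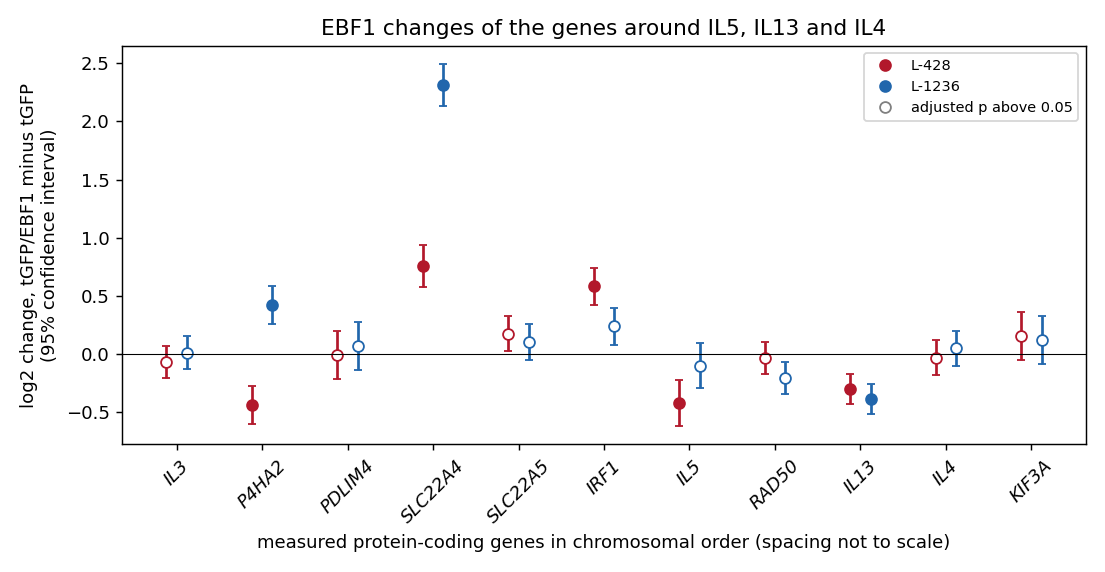
Log2 change with EBF1 (y axis, tGFP/EBF1 minus tGFP, with 95% confidence interval) of the measured protein-coding genes around IL5, IL13 and IL4, in chromosomal order (x axis, spacing not to scale), in L-428 (red) and L-1236 (blue). SLC22A4 lies above 0 and IL13 below 0 in both lines; filled points passed an adjusted p of 0.05.

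IL6, an inflammatory cytokine and plasma cell growth factor, moved in opposite directions in the lines. It read 8.86, 8.67 and 8.69 in L-428 tGFP/EBF1 cells, against 8.49, 8.42 and 8.24 in L-428 tGFP cells. In L-1236 it read 10.24, 10.39 and 10.40 with tGFP/EBF1, against 10.68, 10.57 and 10.59 with tGFP. No EBF1 array overlapped its controls: all 3 lay above them in L-428 and all 3 below them in L-1236. In L-428 the rise was 0.36 (1.28-fold, SE 0.074, 95% interval 0.20 to 0.51, limma adjusted p = 0.00689). It fell by 0.27 on the log2 scale in L-1236 (1.20-fold, 95% interval -0.42 to -0.11, limma adjusted p = 0.0262). The effects differed by 0.62 (SE 0.10, 95% interval 0.40 to 0.84, limma adjusted p = 0.00117). Across all rows 5.16% passed this test of the difference, and IL6 was the 1 cytokine of 8 (12.5%) that did. Each line's own call was less firm than the difference. The rise was lost without L-428 tGFP/EBF1 replicate 1 (adjusted p = 0.0603), and the fall without L-1236 tGFP/EBF1 replicate 1 or any 1 of the 3 L-1236 tGFP arrays (adjusted p up to 0.118) or with median centring (0.0883) or every row tested (0.0677). IL6-AS1, an antisense transcript beside IL6 with a row of its own, changed by 0.022 in L-428 and 0.12 in L-1236 (limma adjusted p = 0.963 and 0.295).

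EBI3 rose in L-1236. It read 10.28, 10.46 and 10.43 in L-1236 tGFP/EBF1 cells, against 10.04, 9.93 and 9.92 in L-1236 tGFP cells, with no overlap. The rise was 0.43 (1.35-fold, SE 0.084, 95% interval 0.25 to 0.60, limma adjusted p = 0.00204). In L-428 it read 10.39, 10.30 and 10.29 with tGFP/EBF1, against 10.20, 10.25 and 9.87 with tGFP. The L-428 arrays did not overlap either, but the lowest control was L-428 tGFP replicate 3, one of the arrays that stand apart. The L-428 change of 0.22 did not pass (95% interval 0.042 to 0.39, limma adjusted p = 0.192), and it was 0.099 without that array (adjusted p = 0.462). With quantile normalization it passed, at 0.21 (limma adjusted p = 0.0221). The effect in L-428 minus that in L-1236 was -0.21 (95% interval -0.46 to 0.036, limma adjusted p = 0.409), and -0.33 without that array (adjusted p = 0.0328). The partner chains of EBI3 did not pass in either line: the 4 group means lay between 7.32 and 7.44 for IL27 and between 6.91 and 7.05 for IL12A. IL27RA, a receptor chain for the pair of EBI3 and IL27, fell in L-1236 by 0.40 on the log2 scale (limma adjusted p = 0.000677), reading 8.07, 8.12 and 8.01 with tGFP/EBF1 against 8.39, 8.51 and 8.48 with tGFP.

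The windows of IL6 and EBI3 are shown because these genes moved with EBF1 and their windows held different motifs. They lie at chr7:22726950-22727249 and chr19:4229273-4229572, both on the plus strand of GRCh38.p14.
IL6: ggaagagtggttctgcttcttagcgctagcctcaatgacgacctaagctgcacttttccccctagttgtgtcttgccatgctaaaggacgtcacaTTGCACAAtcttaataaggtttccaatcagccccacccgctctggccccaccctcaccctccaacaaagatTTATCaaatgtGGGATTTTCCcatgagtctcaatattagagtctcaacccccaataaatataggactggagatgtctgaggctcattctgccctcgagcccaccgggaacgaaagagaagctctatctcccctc
EBI3: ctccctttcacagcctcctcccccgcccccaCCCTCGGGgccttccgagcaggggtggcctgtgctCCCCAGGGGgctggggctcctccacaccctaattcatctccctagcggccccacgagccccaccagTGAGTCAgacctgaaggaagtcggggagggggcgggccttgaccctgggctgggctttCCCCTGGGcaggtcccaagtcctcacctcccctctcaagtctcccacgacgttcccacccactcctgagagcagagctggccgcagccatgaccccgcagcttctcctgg
The IL6 window held a C/EBP match from -155 to -148, a GATAA match on the reverse strand from -84 to -80 and an NF-kappaB match from -73 to -64, and no EBF1 core. Of all windows, 10.5% held a C/EBP match, 22.7% a GATAA match and 5.91% an NF-kappaB match. The EBI3 window held 4 EBF1 core matches, from -219 to -212, from -184 to -177, from -183 to -176 and from -60 to -53, of which those at -184 and -183 overlap, and an AP-1 match from -118 to -112. As many EBF1 cores occurred in 0.29% of windows, and an AP-1 match in 7.71%. The core is rich in G and C, and the EBI3 window was 68.3% G and C, against a median of 58.7% over all windows. Binding of EBF1 was not measured.

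IL10, IL21 and IL16 did not pass in either line. IL10, an anti-inflammatory cytokine, read 6.30, 6.41 and 6.37 in L-428 tGFP/EBF1 cells against 6.33, 6.34 and 6.46 in L-428 tGFP cells, and 6.42, 6.35 and 6.33 in L-1236 tGFP/EBF1 cells against 6.20, 6.39 and 6.32 in L-1236 tGFP cells. Its changes were -0.020 (95% interval -0.16 to 0.12) in L-428 and 0.067 (-0.068 to 0.20) in L-1236, with limma adjusted p of 0.973 and 0.635. IL21, a T-cell cytokine that acts on germinal centre B cells, read 5.86, 5.79 and 5.83 in L-428 tGFP/EBF1 cells against 5.81, 5.89 and 5.88 in L-428 tGFP cells, and 5.93, 5.89 and 5.85 in L-1236 tGFP/EBF1 cells against 5.92, 5.85 and 5.82 in L-1236 tGFP cells. All 4 of its groups overlapped. Its changes were -0.035 (95% interval -0.15 to 0.084) and 0.027 (-0.092 to 0.15), with limma adjusted p of 0.921 in L-428 and 0.854 in L-1236. IL16, a chemoattractant that binds CD4, read 6.96, 6.92 and 6.94 in L-428 tGFP/EBF1 cells against 6.97, 6.96 and 7.09 in L-428 tGFP cells, and 7.13, 7.03 and 7.07 in L-1236 tGFP/EBF1 cells against 7.02, 7.05 and 7.03 in L-1236 tGFP cells. The L-428 arrays of IL16 did not overlap. Its change there was -0.070, with a 95% interval of -0.19 to 0.051 that included 0 (limma adjusted p = 0.737). The change in L-1236 was 0.045 (-0.077 to 0.17, adjusted p = 0.742). IL10 and IL21 lay above 10.3% to 28.0% of the rows of their arrays, and IL16 above 42.0% to 45.3%.

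IL5, IL6 and IL13 differed between the lines. In tGFP cells IL5 was 1.72 log2 units higher in L-428 than in L-1236 (3.29-fold, SE 0.094, limma adjusted p = 1.17e-11), with group means of 7.44 and 5.72. IL6 was 2.23 units lower in L-428, at -2.23 (4.68-fold, SE 0.074, limma adjusted p = 6.93e-15), with means of 8.38 and 10.61. IL13 was 0.56 units higher in L-428 (1.48-fold, limma adjusted p = 2.54e-07), with means of 7.82 and 7.26. Since the IL5 row was dim in L-1236, its fold may be a lower limit. EBI3 did not pass at 0.15 (95% interval -0.029 to 0.32, limma adjusted p = 0.172). Without L-428 tGFP replicate 3 its difference was 0.26 and passed (adjusted p = 0.00264). IL4, IL10, IL16 and IL21 did not pass, with differences between -0.025 and 0.075. Thus 3 of 8 cytokines passed (37.5%), but so did 47.9% of all rows, 26.1% being higher and 21.7% lower in L-428, so the count says nothing particular of cytokines. At 2-fold, IL5 and IL6 passed, as did 7.2% of all rows. With EBF1 in both lines, IL5 was 2.63-fold higher, IL6 3.04-fold lower and IL13 1.57-fold higher in L-428 than in L-1236 (limma adjusted p = 2.33e-10, 9.4e-13 and 3.3e-08). There 3 of 8 passed, against 50.5% of all rows. IL16 missed the threshold there at -0.14 (limma adjusted p = 0.0516), and passed without L-428 tGFP replicate 3 (0.018). That array is in neither group compared, so leaving it out changed the shared estimate of spread and not the difference. IL16 stayed uncalled in 17 of 22 alternatives. Over these 22 its difference lay between -0.17 and -0.053 (limma adjusted p up to 0.344). IL6-AS1 followed the order of IL6 between the lines, at -1.49 in tGFP cells (limma adjusted p = 1.29e-13).

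The lines also differed in the receptors, as the cytokine and receptor plot for control cells shows. Of 19 receptor chains and partners, all measured, 2 were higher and 11 lower in L-428 tGFP than in L-1236 tGFP cells. These were 68.4% of the list, against 47.9% of all rows (26.1% higher and 21.7% lower in L-428). The median difference was -0.23, against -0.0063 over all rows. CSF2RB, the common chain for IL5 and CSF2, averaged 7.31 in L-428 tGFP and 9.18 in L-1236 tGFP cells, a difference of -1.86 (3.64-fold, limma adjusted p = 8.05e-15). IL5RA, the IL5-specific chain, differed by -1.12 (2.17-fold, limma adjusted p = 4.69e-10), so the line with the higher IL5 signal had the lower signal of both IL5 receptor chains. CD4, a binding partner of IL16, averaged 6.86 in L-428 tGFP and 8.62 in L-1236 tGFP cells (-1.76, 3.40-fold, limma adjusted p = 5.6e-12). IL10RA differed by -1.43 (2.70-fold, adjusted p = 1.1e-11), and IL4R, IL13RA1 and IL6R by -0.95, -0.88 and -0.90. The 2 that were higher in L-428 were IL9R (0.58, limma adjusted p = 1.74e-07) and IL13RA2, a decoy receptor for IL13 (0.31, 0.00225). The IL13RA2 row was dim, averaging 5.91 in L-428 tGFP and 5.60 in L-1236 tGFP cells, below every array median. Its difference may be understated.

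**Figure D4:**
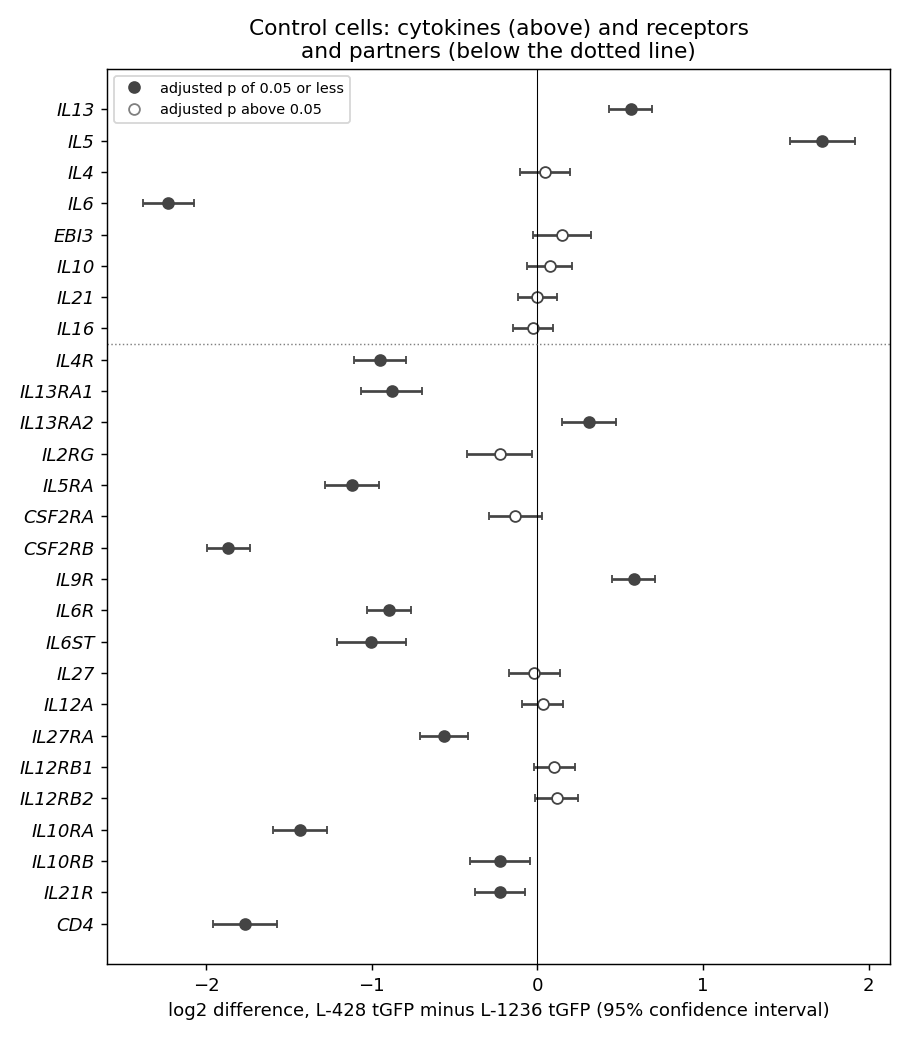
Log2 difference between the control cells (x axis, L-428 tGFP minus L-1236 tGFP, with 95% confidence interval) of the 8 measured cytokines and of 19 receptors and partners below the dotted line; filled points passed an adjusted p of 0.05. IL5 lies far right and IL6 far left, and 11 of the 19 receptors and partners lie left of 0 and passed.

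With EBF1, 0 of the 19 receptors and partners rose and 2 fell in L-428 (10.5%, against 4.34% of all rows). In L-1236 2 rose and 1 fell (15.8%, against 9.64% of all rows). The medians were -0.026 and 0.0049. The falls in L-428 numbered 0 with median centring and 5 without both arrays that stand apart. In L-428 the falls were of IL27RA (-0.30, limma adjusted p = 0.0156) and of IL12RB1, a receptor chain for IL12 family cytokines (-0.22, 0.0373). Both calls were lost with median centring and on leaving out single arrays, any 1 of 4 for IL27RA (adjusted p up to 0.089) and any 1 of 9 for IL12RB1 (up to 0.198). In L-1236 CD4 rose by 0.48 (limma adjusted p = 0.00165), reading 8.84, 9.22 and 9.24 with tGFP/EBF1 against 8.66, 8.63 and 8.58 with tGFP. IL6R rose by 0.21 in L-1236 (limma adjusted p = 0.044), a call lost without any 1 of 9 arrays (up to 0.132) or with median centring. Of 6 T-cell markers, CD3D alone passed in L-1236 (0.32, limma adjusted p = 0.00271), and their mean per array was 6.46 to 6.56 with tGFP/EBF1 and 6.41 to 6.49 with tGFP. Of the 3 myeloid markers with a row, CSF1R alone passed there (0.36, limma adjusted p = 0.00107), with list means of 6.78 to 6.89 and 6.69 to 6.75. The part of either list in the CD4 result was not tested.

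Of 28 other cytokines, each with a row, EBF1 raised 1 and lowered 1 in L-428, and it raised 0 and lowered 2 in L-1236, with medians of -0.022 and 0.019. These were 7.14% of the list in each line, against 4.34% and 9.64% of all rows. Without L-428 tGFP replicate 3 the falls in L-428 numbered 4, TNF (-0.32, limma adjusted p = 0.00789) and LTA (-0.24, 0.0175) being among those gained. With median centring 0 fell in L-1236. IFNG, the signature cytokine of type 1 T-helper cells, rose in L-428. It read 7.17, 7.22 and 7.06 in L-428 tGFP/EBF1 cells against 6.75, 6.70 and 6.62 in L-428 tGFP cells, a change of 0.46 (limma adjusted p = 9.4e-05). In L-1236 it averaged 6.13 with tGFP/EBF1 and 6.16 with tGFP (-0.032, adjusted p = 0.834). CSF1, the macrophage growth factor, fell in both lines. It read 9.87, 9.93 and 9.88 in L-428 tGFP/EBF1 cells against 10.64, 10.73 and 10.28 in L-428 tGFP cells, a change of -0.65 (limma adjusted p = 9.13e-05). In L-1236 it changed by -0.30 (limma adjusted p = 0.0329), a call lost without any 1 of 5 arrays (up to 0.11) or with median centring (0.115). The difference of -0.36 between the lines did not pass (limma adjusted p = 0.103), and did without L-428 tGFP replicate 3 (-0.49, 0.00093). TNF fell by 0.38 on the log2 scale in L-1236 (limma adjusted p = 0.0157), a call lost without any 1 of 4 arrays or with median centring (up to 0.0676). Between the tGFP lines 3 of the 28 were higher and 4 lower in L-428, 25% of the list against 47.9% of all rows. LTA, the gene of lymphotoxin alpha (-2.40, 5.29-fold, limma adjusted p = 2.08e-15), and TNF (-1.28, 1.22e-09) led the low side. IL32 (1.19, limma adjusted p = 4.21e-10) and IFNG (0.53, 4.02e-07) led the high side.

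Of 24 transcription factors known to act on these cytokine genes, each with a row, EBF1 raised 2 and lowered 0 in L-428, and it raised 3 and lowered 2 in L-1236, with medians of 0.024 and 0.013. These were 8.33% of the list in L-428 and 20.8% in L-1236, against 4.34% and 9.64% of all rows. The counts moved with single arrays and scaling. Without L-428 tGFP replicate 3, 2 rose and 4 fell in L-428, and 6 rose and 4 fell in L-1236. With quantile normalization 5 rose and 3 fell in L-428, and 6 rose and 3 fell in L-1236. GATA3, the factor that opens the IL4, IL5 and IL13 genes in T-helper cells, fell in L-1236. It read 10.07, 10.12 and 10.12 in L-1236 tGFP/EBF1 cells against 10.62, 10.54 and 10.53 in L-1236 tGFP cells, a change of -0.46 (limma adjusted p = 0.000635). In L-428 GATA3 changed by -0.21 and did not pass (limma adjusted p = 0.16), and without L-428 tGFP replicate 3 it changed by -0.33 and did (0.00149). TBX21, the type 1 counterpart of GATA3 that promotes IFNG, rose in L-428 by 0.32 (limma adjusted p = 0.00224). The AP-1 subunit FOS rose in L-428 by 1.04 (2.05-fold, limma adjusted p = 3.13e-06), reading 9.82, 9.72 and 9.71 in tGFP/EBF1 cells against 8.92, 8.83 and 8.39 in tGFP cells. STAT6, which IL4 and IL13 activate, rose by 0.39 in L-1236 (limma adjusted p = 0.00235). BCL6, a transcriptional repressor expressed in germinal centre B cells, rose there by 0.40 (0.00165) and the NF-kappaB subunit REL by 0.31 (0.0126). CEBPB, an activator of IL6, fell by 0.39 on the log2 scale in L-1236 (limma adjusted p = 0.00281). In L-428 BCL6 and CEBPB did not pass, at -0.27 and 0.26 (limma adjusted p = 0.0571 and 0.0801). BCL6 passed there without L-428 tGFP replicate 3 (-0.33, limma adjusted p = 0.0145), and CEBPB without L-428 tGFP replicate 2 (0.36, 0.00832). Both passed with quantile normalization (adjusted p = 0.035 for BCL6 and 0.0252 for CEBPB). Of 23 alternatives, BCL6 stayed uncalled in L-428 in 13 (limma adjusted p up to 0.275) and CEBPB in 20 (up to 0.301). Between the tGFP lines 13 of the 24 were higher and 6 lower in L-428, 79.2% of the list against 47.9% of all rows. PRDM1, a plasma cell factor (2.94, 7.65-fold, limma adjusted p = 6.07e-16), and FOS (1.46, 4.1e-10) were highest. NFKB1 (-0.70, limma adjusted p = 2.85e-07) and BATF3 (-0.47, 4.37e-06) were lowest.

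**Figure D5:**
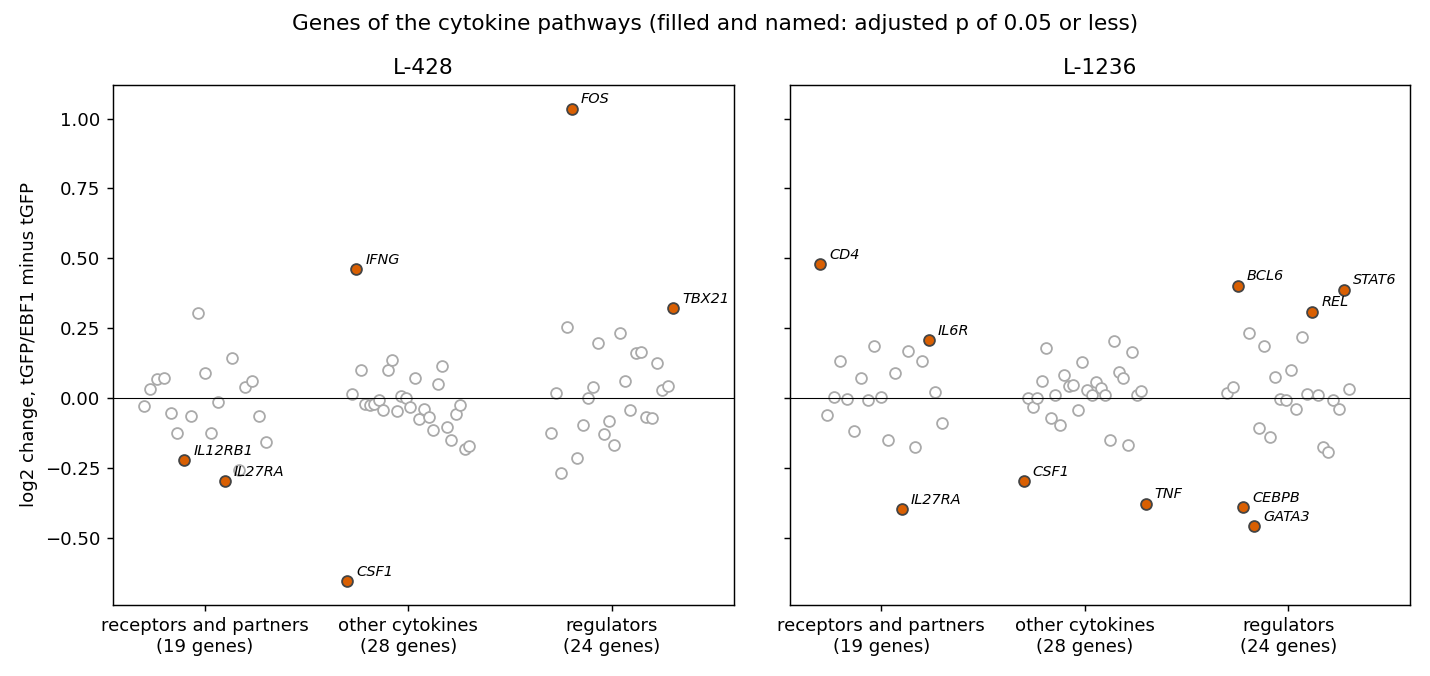
Log2 change with EBF1 (y axis, tGFP/EBF1 minus tGFP) of 19 receptors and partners, 28 other cytokines and 24 regulators (x axis) in L-428 (left) and L-1236 (right); filled and named genes passed an adjusted p of 0.05. FOS, at 1.04 in L-428, is the largest change, and the other passing changes are smaller.

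IL5 and IL6, whose group means spanned 1.82 and 2.23 log2 units, were set against every row with 1 symbol for likeness of pattern over the 12 arrays. Likeness was the mean absolute difference of log2 values after each row was centred on its own mean. The rows most like IL5 were EOGT (0.0813), a glycosyltransferase, and ASB2 (0.0834), a ubiquitin ligase subunit. ASB2 averaged 7.92 in L-428 tGFP/EBF1 and 8.37 in L-428 tGFP cells, and 6.65 in L-1236 tGFP/EBF1 and 6.62 in L-1236 tGFP cells. The rows most like IL6 were RRAGD (0.0622), a GTPase of amino acid sensing, and CCDC92 (0.0719). RRAGD averaged 9.02 in L-428 tGFP/EBF1 and 8.77 in L-428 tGFP cells, and 10.65 in L-1236 tGFP/EBF1 and 10.85 in L-1236 tGFP cells. Both shared with IL6 a higher level in L-1236.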

How the data were processed

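Signals of 12 arrays were taken from the deposited series table, whose log2 values were made by the authors. How background was corrected and how probes were summarized and normalized is not given in the sources used here. No source states the log base, which was read as 2 from the size of the values. Amplification used Ambion's WT Expression Kit, per the labels' protocols. Array number limits the precision (median SE of a change 0.069 log2 units). All 12 columns were mapped by title to their samples.

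No further scaling was applied. A linear model of 4 group means over all arrays was fitted with limma 3.58.1 (R 4.3.3; moderated variances, no block, 8 residual and 9.98 prior degrees of freedom). P-values were Benjamini-Hochberg adjusted over 20546 rows with a symbol (19158 with 1 symbol, 1388 with several). The fit was tested on simulated data with known changes and independent noise, with the same spread of a row on every array. Arrays that stand apart were not simulated. Array annotation gave gene names, and no array coordinates were used. Figures were drawn with matplotlib 3.10.9 under Python 3.11.15.

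The members and lists were chosen with earlier results of these data known. Named are all members and, of each list, up to 3 genes with the largest change among those passing in each EBF1 contrast, 2 per direction for the tGFP lines, and 2 rows most alike for members spanning at least 1 log2 unit. Also named, chosen after their values were seen, were the chromosome 5 neighbours, IL6-AS1, STAT6, REL, the partner chains IL27 and IL12A, further receptors and marker genes. Alternatives were other scalings, row filters, variance settings, array weights, a replicate block and leaving out arrays.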

Additional observations from a re-analysis of the deposited data

Results flagged for a closer look

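The change with EBF1 differed between the lines, by limma's test of the difference (L-428 effect minus L-1236 effect), for 1 cytokine and 7 genes of the pathway lists. Of the 8 cytokines 12.5% passed, of the 19 receptors and partners 10.5%, of the 28 other cytokines 3.57% and of the 24 regulators 16.7%. Over all rows 5.16% passed. For IL6 the difference was 0.62 (adjusted p = 0.00117), with a rise in L-428 and a fall in L-1236. For CEBPB it was 0.64 (limma adjusted p = 0.00163) and for BCL6 -0.67 (0.000886). For both, the 2 lines' changes had opposite signs, and the L-1236 change passed its own test while the L-428 change did not. For IFNG it was 0.49 (limma adjusted p = 0.00166) and for FOS 0.80 (0.00216), each of which rose in L-428. These 5 differences passed in every alternative run for them. For CD4 the difference was -0.51 (limma adjusted p = 0.0265), for IL12RB1 -0.29 (0.0474) and for TBX21 0.29 (0.0482). These 3 were lost with median centring, with every row tested, and on leaving out any 1 of 8, 11 and 9 arrays, in the order named (adjusted p up to 0.0897, 0.148 and 0.142). Groups of 3 arrays were not tested for single outlying samples.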

How the results depend on the processing

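IL13 in both lines, EBI3 in L-1236 and the IL6 difference between the lines passed in every alternative run, with ranges of -0.34 to -0.27, -0.46 to -0.35, 0.39 to 0.48 and 0.48 to 0.68 and adjusted p of at most 0.0423, 0.0041, 0.0186 and 0.00942. Of the 40 cytokine changes 13 were called, and their calls held in 282 of 295 alternative fits. The calls lost were of IL5 in L-428 and of IL6 in each line. The 13 include the line differences of IL5, IL6 and IL13, with tGFP and with tGFP/EBF1, which were called in every fit. Of 592 alternative fits of uncalled changes, 22 made the change pass and 35 turned its sign. With quantile normalization 4 cytokines passed in L-428 (EBI3 added), and with median centring 2 passed in L-428 (IL6, IL13) and 2 in L-1236 (IL13, EBI3). At 2-fold, 0 passed in L-428, 0 in L-1236 and 0 for the difference. For the difference, 2 passed with quantile normalization, 3 with array weights, 3 with gene-by-gene array weights (added after seeing the data because the default weights did not converge), and 3 without both arrays that stand apart. Leaving out 1 array gave 2 to 3 in L-428, 2 to 3 in L-1236 and 1 to 3 for the difference, the 3 without L-428 tGFP replicate 3. With EBF1 in both lines 5 passed with array weights. Over all rows, the 892 passing in L-428 became 1614 with quantile normalization, 498 with median centring, 598 with every row tested, 2657 with array weights, 2592 with gene-by-gene weights, and 1984 without both arrays that stand apart. The 1981 in L-1236 became 3063 with quantile normalization, 8750 with array weights and 5176 with gene-by-gene weights, and 1294 to 2898 on leaving out 1 array (463 to 1307 in L-428). The 1061 for the difference became 1865 with quantile normalization, 599 with median centring, 676 with every row tested, 4538 and 3194 with the 2 kinds of weights, and 1897 without both arrays that stand apart. With a replicate block 3 passed in L-428, 3 in L-1236 and 1 for the difference. Under it the IL12RB1 and TBX21 differences (adjusted p = 0.0753 and 0.0706) and the IL12RB1 change in L-428 (0.0637) no longer passed, and the BCL6 change in L-428 did (0.0363). The r of deviations of same-numbered EBF1 and control samples was 0.233, -0.21 and -0.0197 in L-428 and 0.283, -0.0744 and 0.186 in L-1236, so not every pair deviated together and the numbers were not taken as pairs. The filter on dim rows left no value for IL4, IL5, IL10, IL16 and IL21, nor for IL13RA2 and IFNG of the lists. Fitting the groups of the contrast alone leaves the difference as it is. Without scanner files, signal over background is unknown, and changes of dim rows may be understated.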
